A study of Mus musculus with 4 samples.

Results

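The modulated Lum Vcam1 wall cells of the mouse aorta were 2045 of 37865 eligible cells, that is, of barcodes with at least 1000 unique molecular identifiers (UMIs) and at most 10% of them from mitochondrial genes. The deposited matrices held 70795 barcodes in all. Members were selected on measured values: at least 2 UMIs of Lum and 1 of Vcam1, under 3% of UMIs from the contractile genes Acta2, Tagln, Myh11 and Myl9, and next to none from defining genes of fibroblasts (Pdgfra, Serpinf1, Dpt), chondrocytes (Col2a1, Acan, Cytl1, Ibsp), macrophages (C1qa, C1qb, C1qc) and endothelium (Pecam1, Cdh5). The levels of these genes therefore describe the selection and are not findings.

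Aortas of 4 groups were dissociated and profiled by single-cell RNA sequencing from the 3′ end of transcripts, with 1 library per group. The groups were WT mice on normal diet, LysM-DKO mice on normal diet, WT/ApoE-/- mice on western diet and LysM-DKO/ApoE-/- mice on western diet. Both western diet groups lacked ApoE, an apolipoprotein whose loss lets plaques form, so diet and ApoE genotype cannot be told apart, and the normal diet groups carried ApoE. LysM names the lysozyme promoter that is widely used to drive Cre recombinase in myeloid cells, and the series concerns epsins, endocytic adaptor proteins. The labels do not spell out the deleted genes, the age or sex of the mice, or how many mice were pooled. Since a group had only 1 library, groups could not be tested against each other. The 95% intervals given here are exact binomial or Poisson intervals that cover counting error only, not the spread between cells, mice or preparations. For summed UMIs they treat the UMIs of 1 cell as independent, so they are too narrow where cells differ. In the text, WT and LysM-DKO without a diet refer to the western diet groups.

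Smooth muscle cells of a healthy artery hold actin and myosin filaments and contract. In a plaque they can lose these contractile proteins and take up a modulated state, in which they make extracellular matrix such as fibronectin, osteopontin and small proteoglycans. Lumican, encoded by Lum (GRCm38 chromosome 10, 97565128 to 97572703, plus strand), is a proteoglycan that binds collagen fibrils, and VCAM1, encoded by Vcam1 (chromosome 3, 116109949 to 116129688, minus strand), is an adhesion molecule that binds leukocyte integrins.

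The promoters of 6 genes, each holding a match to a motif named below, are printed first, from RefSeq on GRCm38.p6. Each runs from 250 bases before to 50 bases after the gene's start, 5′ to 3′ on the gene's strand. They are examples and do not stand for the gene lists they come from. Capitals mark matches on either strand to the consensus of NF-kB, a factor of inflammatory signalling (Cxcl1, Cxcl2, Cxcl10, Tm4sf1), of AP-1, searched as TGANTCA (Mmp3), or to the CArG box bound by serum response factor (Myl9). In Cxcl1 and Cxcl2 the capitals cover 2 overlapping matches, and in Cxcl10 they mark 2 separate ones. Cxcl10 also holds an AP-1 match and Myl9 an NF-kB match, both left in lower case.
Cxcl1 (chr5:90890995-90891294, plus strand): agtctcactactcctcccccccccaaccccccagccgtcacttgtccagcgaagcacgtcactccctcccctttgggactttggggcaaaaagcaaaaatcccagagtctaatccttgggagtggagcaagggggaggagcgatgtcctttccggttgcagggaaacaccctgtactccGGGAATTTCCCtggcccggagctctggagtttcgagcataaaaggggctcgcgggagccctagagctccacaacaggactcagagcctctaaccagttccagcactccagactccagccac
Cxcl2 (chr5:90903649-90903948, plus strand): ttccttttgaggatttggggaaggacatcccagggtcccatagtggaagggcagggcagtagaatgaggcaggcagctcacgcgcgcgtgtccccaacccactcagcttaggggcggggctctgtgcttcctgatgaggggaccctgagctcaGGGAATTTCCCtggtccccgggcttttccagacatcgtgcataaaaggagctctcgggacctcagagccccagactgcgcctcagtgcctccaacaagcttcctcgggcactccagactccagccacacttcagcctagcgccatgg
Cxcl10 (chr5:92348840-92349139, minus strand): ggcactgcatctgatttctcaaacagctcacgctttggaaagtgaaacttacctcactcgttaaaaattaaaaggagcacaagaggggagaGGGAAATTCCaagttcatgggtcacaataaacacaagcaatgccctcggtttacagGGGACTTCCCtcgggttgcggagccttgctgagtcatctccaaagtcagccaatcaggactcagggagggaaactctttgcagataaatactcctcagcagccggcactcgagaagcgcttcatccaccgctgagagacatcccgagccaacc
Tm4sf1 (chr3:57301939-57302238, minus strand): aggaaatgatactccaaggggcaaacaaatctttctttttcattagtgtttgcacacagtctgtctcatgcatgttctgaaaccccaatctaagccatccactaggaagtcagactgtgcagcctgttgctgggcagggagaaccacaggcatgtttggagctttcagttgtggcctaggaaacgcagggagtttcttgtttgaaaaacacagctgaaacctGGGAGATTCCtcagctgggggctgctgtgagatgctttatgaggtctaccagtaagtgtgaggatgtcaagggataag
Mmp3 (chr9:7445572-7445871, plus strand): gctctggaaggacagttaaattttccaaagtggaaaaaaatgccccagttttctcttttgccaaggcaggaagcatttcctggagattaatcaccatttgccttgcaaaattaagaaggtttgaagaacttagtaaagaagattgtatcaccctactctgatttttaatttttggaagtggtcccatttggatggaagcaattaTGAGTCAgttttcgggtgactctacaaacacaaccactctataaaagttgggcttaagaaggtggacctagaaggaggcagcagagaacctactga
Myl9 (chr2:156775214-156775513, plus strand): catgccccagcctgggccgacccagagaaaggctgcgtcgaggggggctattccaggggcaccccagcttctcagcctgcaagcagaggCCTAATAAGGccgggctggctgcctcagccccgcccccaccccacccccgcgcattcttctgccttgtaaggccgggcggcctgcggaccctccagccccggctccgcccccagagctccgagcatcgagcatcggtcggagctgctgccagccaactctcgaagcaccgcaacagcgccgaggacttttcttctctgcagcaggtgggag

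Among 32851 such windows, with those of chromosome 18 left out here and in the counts by list, 4.51% held an NF-kB match, 7.81% an AP-1 match and 1.63% a CArG match. Of 18 chemokine and cytokine genes with a promoter in the table, 5 held an NF-kB match (Csf1, Cxcl1, Cxcl10, Cxcl2 and Il6) and 5 an AP-1 match. None of 17 contractile promoters outside the selection held a CArG match in this window. Of the 4 contractile selection genes 2 had a promoter in the table, and Myl9 held a match. A match describes letters only, and no match says only that these letters are not in the window.

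Members made up 14.2% of eligible cells in the WT library (1945 of 13744, interval 13.6 to 14.7%) and 0.627% in the LysM-DKO library (51 of 8133, 0.467 to 0.824%). On normal diet they were 0.193% in WT (15 of 7758, 0.108 to 0.319%) and 0.413% in LysM-DKO (34 of 8230, 0.286 to 0.577%). The WT western diet library thus held most members, and the other 3 libraries each held under 1%. On western diet the share was 22.6-fold higher in WT than in LysM-DKO, which on the log2 scale, LysM-DKO over WT, was -4.50 (-4.93 to -4.10), and on normal diet that ratio was 1.10 (0.18 to 2.08) on far fewer cells. A share depends on which other cells a library holds: a change in the number of these cells and a change in the other cells cannot be told apart.

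Sequencing depth moved with the share. The median UMI count of members was 1760 in WT and 8925 in LysM-DKO, and 58.2% of WT members but 9.80% of LysM-DKO members had fewer than 2000 UMIs. Within one depth range the order of the 2 western diet libraries was the same. Members were 17.2% against 1.30% of cells below 2000 UMIs (1132 and 5 members), 14.8% against 0.339% from 2000 to below 5000 UMIs (491 and 5), and 8.42% against 0.654% from 5000 UMIs up (322 and 41). In the deepest range, where the LysM-DKO library held most of its members, the share was 12.9-fold higher in WT.

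**Figure D1:**
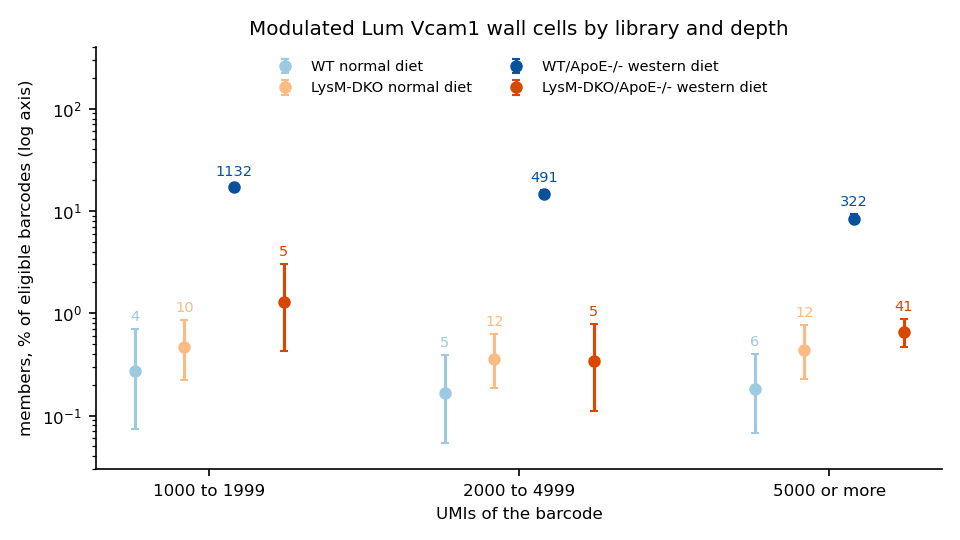
Share of modulated Lum Vcam1 wall cells among eligible cells (y axis, percent, log scale) in 3 ranges of UMIs per cell (x axis), with exact binomial 95% intervals and the number of members above each point. In every range WT/ApoE-/- western diet (8.42 to 17.2%) sits above the other 3 libraries, whose shares are 1.30% or less.

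The steps of the selection removed different cells in the 2 western diet libraries. Of the cells with Lum and Vcam1, 4484 in WT and 491 in LysM-DKO, the contractile limit left 3580 and 453. The limit on fibroblast genes then left 2708 and 96, so that in LysM-DKO most Lum Vcam1 cells carried more than 1 UMI of Pdgfra, Serpinf1 and Dpt. Cells that failed on the contractile limit alone numbered 614 in WT and 23 in LysM-DKO, and those that failed on fibroblast genes alone 594 and 220. At the contractile limit in WT, the 319 members at 2.5 to 3% and the 265 cells just outside at 3 to 3.5% had Lum at 3207 and 2561 CPM (UMIs scaled to a total of 1e+06 over the cells summed), Vcam1 at 2196 and 1599, Fn1 at 4758 and 3764 and Spp1 at 1902 and 2391. Lum and Vcam1 were set by the selection on both sides, while outside the limit Fn1 was lower and Spp1 higher. These levels are sums over many cells, so whether the limit falls between separate groups of cells cannot be told from them.

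Free RNA and other cells in a droplet bear on these counts. Lymphocytes, taken as barcodes with at least 3 UMIs of T or B cell receptor genes and expected to lack Lum, had a Lum UMI in 26.4% of 590 barcodes in WT and in 2.78% of 36 in LysM-DKO, at median depths of 2155 and 2689 UMIs. They met the full selection in 9 of 590 barcodes in WT (1.53%, 0.700 to 2.88%), below the member share of 14.2% there. In LysM-DKO 0 of 36 met it, which allows a share of up to 8.33% (3 of 36 barcodes), above the member share of 0.627%. On normal diet 0 of 1068 in WT met it, which allows up to 0.281% (3 barcodes), above the member share of 0.193%. On normal diet in LysM-DKO 7 of 1348 met it (0.519%), also above the member share of 0.413%. A barcode that met it was a member, so 7 of the 34 members there were lymphocyte barcodes, as were 9 of the 1945 in WT on western diet. The Lum and Vcam1 condition alone was met by 0.375 and 1.63% of lymphocytes on normal diet and by 2.88 and 2.78% on western diet, in WT and LysM-DKO. Of the 4 libraries, the member share was above this background, or the limit it allows, in the WT western diet library only. Doublet scoring marked 5, 5, 188 and 4 members in the 4 groups, in the order given above. These were 33.3, 14.7, 9.67 and 7.84% of members, against 9.63, 10.8, 12.4 and 7.91% of all scored barcodes. The share marked over all barcodes was set by their number. No member barcode occurred as a member in 2 libraries.

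The genes of other cell types are given as sums for all 4 libraries. Over a list of 14 macrophage genes, members held 424 CPM in WT and 1610 CPM in LysM-DKO on normal diet. On western diet they held 358 CPM in WT and 59.3 CPM in LysM-DKO, where 11 of the 14 genes were at 0. In LysM-DKO on normal diet 6 of the 14, among them Csf1r, Adgre1 and Lyz2, were at 0. Most of that sum was Cd74, which lymphocytes of WT on western diet held at 3626 CPM. That sum therefore does not tell macrophage from lymphocyte RNA. Hemoglobin and Alas2 summed to 199, 207, 466 and 3.95 CPM, and 8 lymphocyte genes to 13.3, 236, 31.9 and 3.95 CPM. Fibroblast genes outside the selection were closer together, at 1990, 1943, 1326 and 1311 CPM, as were endothelial genes at 79.6 to 102 CPM. The 8 pericyte genes, among them Rgs5, summed to 1287, 598, 1692 and 1786 CPM, above the fibroblast genes on western diet. Chondrocyte genes outside the selection summed to 26.5, 32.5, 133 and 239 CPM. A single WT western diet member held 1628 of the 2912 erythroid UMIs there, and 11.3% of those members had any. A single LysM-DKO member on normal diet held 280 of the 396 UMIs of the macrophage list there. RNA of the macrophage and erythroid lists was lower in the LysM-DKO members of western diet than in the other 3 libraries. The lymphocyte sums rest on 1 UMI in WT on normal diet and 2 in LysM-DKO on western diet, so their order cannot be told. The part of immune and erythroid RNA in the differences between genotypes was not tested. Apoe had 50 and 172 UMIs in the 15 and 34 normal diet members and 38 and 1 UMIs in the 1945 and 51 western diet members, in the direction the labels give for ApoE-/-.

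Levels are given for western diet, where at least 20 members per library allow them. The normal diet LysM-DKO members, lymphocyte barcodes among them, are given beside these where they bear on a gene. Mgp, encoding matrix Gla protein, an inhibitor of calcification (chromosome 6, 136872435 to 136875823, minus strand), was the most abundant of the 5 markers in members, at 32828 CPM (32686 to 32970) in WT and 28637 CPM (28173 to 29107) in LysM-DKO. It was at 28123 CPM in the normal diet members of LysM-DKO. In both western diet libraries Mgp exceeded contractile smooth muscle (6204 and 5459 CPM) by a log2 ratio of 2.40 and 2.39. It also exceeded the fibroblast gate (23499 and 12534 CPM) and the chondrocyte gate (16021 and 21589 CPM).

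Fn1 encodes fibronectin (chromosome 1, 71585520 to 71653200, minus strand), an adhesive matrix protein bound by integrins. It was at 6379 CPM in WT members and 4928 CPM in LysM-DKO members, against 2058 and 2213 CPM in smooth muscle (log2 ratio 1.63 and 1.16). The chondrocyte gate held more Fn1, at 8675 and 9709 CPM, so fibronectin alone did not set the members apart.

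Spp1 encodes osteopontin (chromosome 5, 104435118 to 104441050, plus strand), a phosphoprotein of bone and of plaques. It reached 6993 CPM (6928 to 7059) in WT members and 5050 CPM (4856 to 5250) in LysM-DKO members, against 126 and 9.43 CPM in smooth muscle. The fibroblast gate held 10153 and 1262 CPM and the chondrocyte gate 17025 and 5879 CPM, so in WT both stood above the members. Its spread among members was wide. With each cell thinned to 1000 UMIs, Spp1 was seen in 71.0% of WT members and in 25.5% of LysM-DKO members, against 23.7% and 5.56% of lymphocytes and 16.1% and 1.31% of smooth muscle cells. In LysM-DKO the level came from 18 of 51 cells, and 1 cell gave 33.6% of the UMIs, so the sums of the 2 libraries look closer than their cells do.

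Lum stood at 5024 CPM in WT members and 2984 CPM in LysM-DKO members and Vcam1 at 3912 and 3241 CPM, as the selection required. The 3 markers that the selection did not use, Mgp, Fn1 and Spp1, were each above smooth muscle in both western diet libraries, Fn1 by the least. On normal diet the 34 LysM-DKO members held Lum at 756 CPM, Spp1 at 1000 CPM and Fn1 at 1012 CPM. They also held Cd74, an antigen presentation gene of immune cells, at 1338 CPM, with the UMIs of the macrophage list mostly in 1 cell as given above. Of these 34 members 7 were also lymphocyte barcodes, and the name is used for the 34 by rule only.

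**Figure D2:**
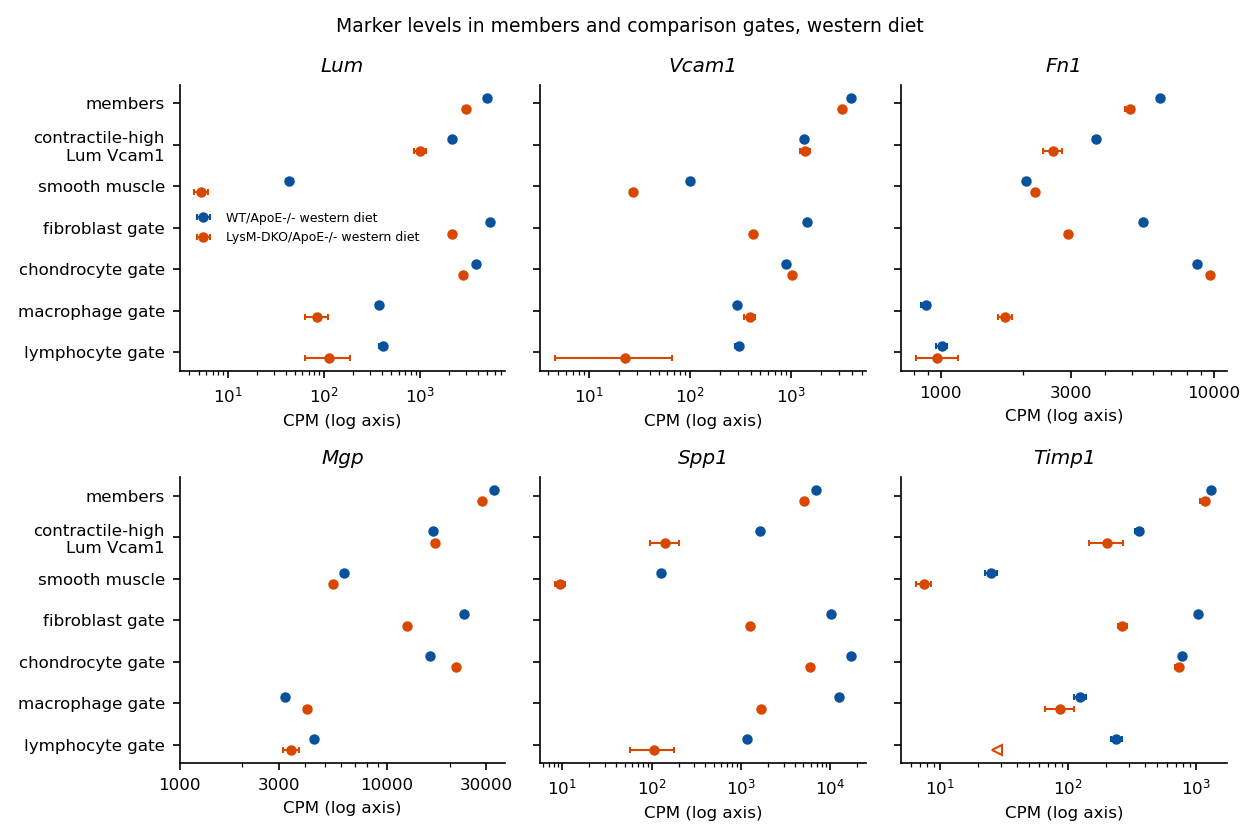
Levels of 5 markers and Timp1 (x axes, CPM, log scale) in members and 6 comparison gates (y axes) of the 2 western diet libraries, with exact Poisson 95% intervals; an open triangle is an upper limit where no UMI was counted. Spp1 is at 6993 and 5050 CPM in members against 126 and 9.43 CPM in smooth muscle, while the fibroblast and chondrocyte gates of WT lie above the members.

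Members were next set against contractile smooth muscle of the same library, taken as cells with at least 4% contractile UMIs and at most 1 Lum UMI (2618 cells in WT, 3733 in LysM-DKO). A gene was called where it differed 2-fold or more with an interval apart from 0. Of 11329 genes tested in WT, 8.61% were called higher and 4.78% lower in members, and of 11477 in LysM-DKO, 7.37% were called higher and 3.71% lower. The median log2 ratio over all genes was -0.03 and 0.07. Since the 2 sets of cells were cut by contractile genes and Lum, these ratios describe the cut and genes that go with it.

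The contractile genes outside the selection were lower in members. Of 18, 17 were called lower in WT and 15 in LysM-DKO, none was called higher, and the medians were -1.48 and -1.41. Cnn1, encoding calponin, a regulator of actin and myosin, was at 456 CPM in WT members and 557 CPM in LysM-DKO members against 1638 and 1762 CPM in smooth muscle (log2 ratio -1.84 and -1.66). Tpm2, a tropomyosin, was at 1254 and 1173 CPM against 4066 and 4012 CPM (-1.70 and -1.77), Cald1, caldesmon, had ratios of -1.27 and -1.08, and Myocd, the coactivator of contractile genes, -1.23 and -0.75. Acta2, smooth muscle actin, was capped by the selection and was at 6513 and 6287 CPM. Lymphocytes of the same libraries held Acta2 at 2865 and 4514 CPM, and how much of the members' contractile RNA was free RNA was not tested.

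Genes of the modulated state were higher than in smooth muscle. Of 20, 16 were called higher and none lower in each library, with medians of 2.49 and 2.54. This list was chosen with such cells in mind and is not independent evidence. Against the fibroblast gate its medians were -0.002 in WT and 0.65 in LysM-DKO, against -0.10 and -0.08 over all genes. Against the chondrocyte gate they were -0.09 and -0.66, against 0.09 and 0.03 over all genes. In WT 1 gene was called higher and 5 lower than the fibroblast gate, and 2 higher and 7 lower than the chondrocyte gate. In LysM-DKO these counts were 4 and 2, and 0 and 6, of 19. Dcn, encoding decorin, a collagen-binding proteoglycan, was at 4499 CPM in WT members and 2783 CPM in LysM-DKO members against 85.6 and 19.3 CPM in smooth muscle. Timp1, an inhibitor of matrix metalloproteinases, was at 1314 and 1173 CPM against 25.2 and 7.55 CPM, although in LysM-DKO 1 cell gave 34.7% of its UMIs. Ly6a, the surface protein Sca1, was at 326 and 113 CPM against 4.09 and 0.363 CPM, and Prg4, lubricin, at 172 and 188 CPM against 2.75 and 0.472 CPM. The interval of Ly6a over smooth muscle in LysM-DKO ran from 7.30 to 9.41 (log2), since smooth muscle held 10 of its UMIs.

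Collagen genes were mostly higher: 11 of 17 were called higher in WT and 12 of 16 in LysM-DKO, with none lower and medians of 1.41 and 1.46. Col1a1 and Col3a1, chains of fibrillar collagens, were at 2040 and 3090 CPM in WT members and 2664 and 3449 CPM in LysM-DKO members, log2 ratios over smooth muscle of 1.73 and 1.49 in WT and 2.55 and 1.90 in LysM-DKO. Against the chondrocyte gate the same list was lower in members (medians -0.86 and -1.24, against 0.09 and 0.03 over all genes), as Col1a1 was at 13035 and 13500 CPM there. Members thus lay between smooth muscle and the chondrocyte gate in Col1a1. Among proteoglycans, 5 of 16 and 6 of 16 were called higher and 1 lower in each library; the lower gene was Ogn, osteoglycin, with -1.29 and -1.69. Among matricellular genes, 7 of 16 and 8 of 15 were called higher and 1 lower in each; the lower gene was Sparcl1, with -2.08 and -2.46.

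Of 18 elastic fibre genes, 7 were called higher than smooth muscle in WT (median 0.76) and 12 in LysM-DKO (median 1.41), with none lower. The same list had a median of -0.22 for smooth muscle of LysM-DKO over WT, and the difference between these counts was not tested. Eln encodes elastin (chromosome 5, 134702593 to 134747323, minus strand). It was at 1360 CPM in WT members, close to smooth muscle at 1239 CPM (log2 ratio 0.13), and at 2846 CPM in LysM-DKO members against 886 CPM (1.68). Fbln2 and Ltbp2, which encode proteins found with elastic fibres, were higher in both libraries (3.84 and 3.19 in WT, 4.96 and 3.66 in LysM-DKO).

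Among matrix proteases and their inhibitors, 12 of 23 and 9 of 20 were called higher, and 1 and 0 lower. The inhibitors were the abundant part. Timp3 was at 2737 CPM in WT members and 1847 CPM in LysM-DKO members and Timp2 at 1394 and 1230 CPM. Mmp3, stromelysin, whose promoter with 1 AP-1 match starting 46 bases before the start is printed above, was at 713 and 182 CPM against 17.5 and 3.92 CPM in smooth muscle. Its 92 UMIs in LysM-DKO came from 5 cells, 63.0% of them from 1 cell.

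The osteochondrogenic list was higher than in smooth muscle, with 13 of 17 called in WT and 7 of 12 in LysM-DKO (medians 1.46 and 1.85), and lower than in the chondrocyte gate, with medians of -3.73 and -2.89 against 0.09 and 0.03 over all genes. Sox9, the master factor of cartilage, was at 70.3 CPM in WT members and 71.1 CPM in LysM-DKO members, against 9.58 and 10.3 CPM in smooth muscle and 647 and 552 CPM in the chondrocyte gate. Members held Sox9 at a level between the 2 in both libraries. Tnfrsf11b, osteoprotegerin, a decoy receptor that blocks bone resorption, was at 584 and 215 CPM in members.

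Chemokine and complement genes were higher than in smooth muscle. Of the chemokines and cytokines measured, 11 of 13 in WT and 9 of 10 in LysM-DKO were called higher (medians 2.94 and 3.93), and of complement genes 9 of 11 and 6 of 8 (medians 1.99 and 2.76). Cxcl12, a chemokine that retains CXCR4-bearing cells, was at 517 CPM in WT members and 308 CPM in LysM-DKO members against 50.1 and 30.3 CPM in smooth muscle. Cxcl1, which recruits neutrophils, was at 215 and 425 CPM against 25.1 and 13.7 CPM, and its promoter above has 2 overlapping NF-kB matches whose first bases lie 71 and 70 bases before the start. C3, the central complement component, was at 455 and 273 CPM against 16.5 and 1.74 CPM. Members did not lead in these families: against the fibroblast gate the medians were -1.41 in WT and -1.35 in LysM-DKO for complement, and -1.36 in WT and -0.997 in LysM-DKO for chemokines, against -0.10 and -0.08 over all genes.

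Of the smaller groups, lipid handling had 7 of 18 and 6 of 16 genes called higher (medians 0.81 and 0.52), among them Abca1, a transporter that exports cholesterol, with log2 ratios of 1.89 and 1.33, and Lrp1, a lipoprotein receptor, with 1.15 and 1.29. Genes of TGF-beta signalling had 4 of 18 and 5 of 18 called higher (medians 0.27 and 0.42), led by Grem1, a BMP antagonist, with 5.41 and 8.82. Transcription factors had 7 of 23 and 6 of 21 called higher, with Klf4, tied to loss of the contractile state, at 0.71 and 0.79, below the fold used. Endocytic adaptors, the family of the epsins, had 1 of 12 called higher in each library (medians 0.10 and 0.27). Early response and heat shock genes, which report dissociation stress, were not higher in members (medians -0.54 and -0.21), with 3 of 18 and 1 of 18 called lower. Cell cycle genes were called higher in 10 of 15 and 7 of 11 cases at low levels: Mki67 was at 23.2 CPM in WT members and 79.0 CPM in LysM-DKO members.

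**Figure D3:**
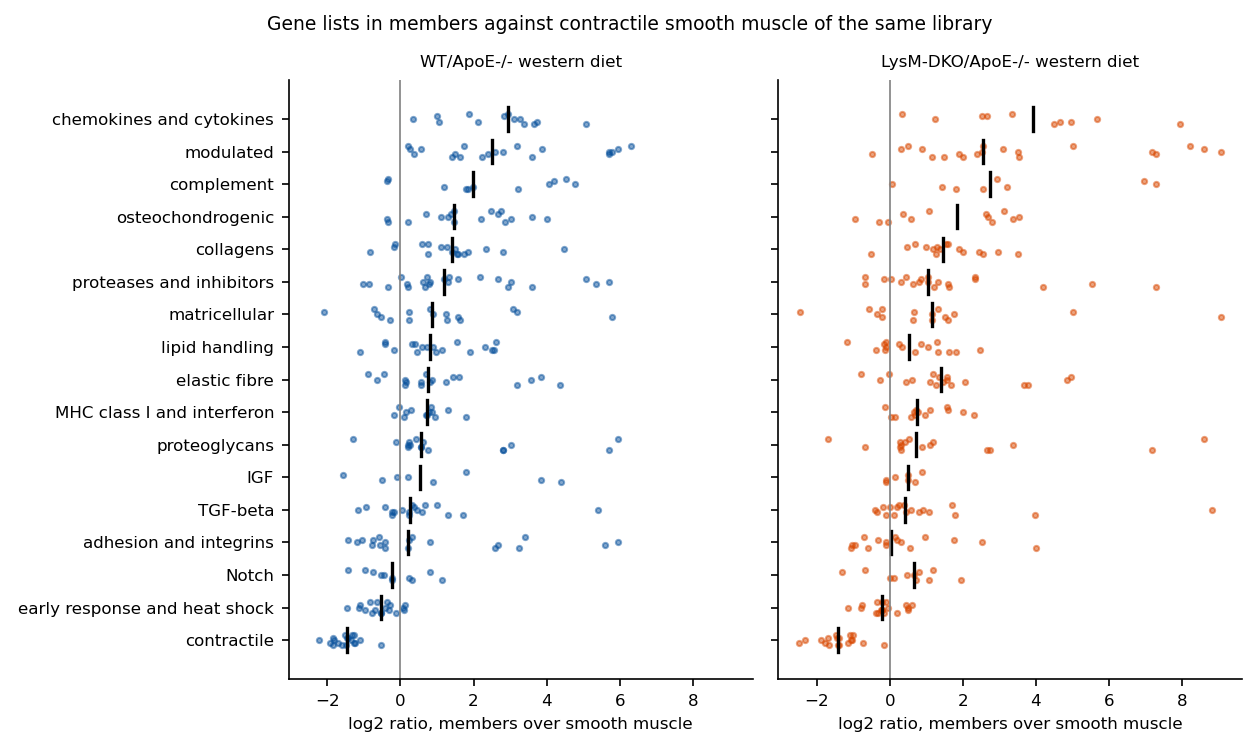
Log2 ratio of each gene's CPM in members over contractile smooth muscle of the same library (x axes) for 17 gene lists (y axis); points are genes with at least 50 UMIs over both sets of cells and bars are list medians. The contractile list lies to the left of 0 (medians -1.48 and -1.41), and modulated, complement and chemokine genes lie to the right in both libraries.

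Genes that set members apart from smooth muscle, fibroblasts and chondrocytes at once were few. Of 1348 genes with at least 100 CPM in the members of both western diet libraries, 111 were above all 3 gates in both libraries, and 1 was at least 2-fold above all of them. That gene was Tm4sf1, a tetraspan membrane protein (chromosome 3, 57285611 to 57301988, minus strand), whose promoter is printed above. Tm4sf1 was at 3049 CPM in WT members and 2976 CPM in LysM-DKO members, and its smallest log2 ratio, over smooth muscle of WT at 1487 CPM, was 1.04. The contractile-high Lum Vcam1 cells, which were not among the 3 gates, held it at 2435 and 2354 CPM, less than 2-fold below the members. Sfrp2, a secreted modulator of Wnt signalling, came next at 629 and 595 CPM (smallest log2 ratio 0.79), and then, after Serpinb6b, Alcam, an adhesion molecule, at 321 and 261 CPM (0.73). Sulf1, Sod3, Itih4, Ace, Cx3cl1, Inhba, Gja1 and the metallothioneins Mt1 and Mt2 were also among the 20 leading genes. Of Itih4, the cells outside the contractile limit held more, at 620 and 611 CPM against 402 and 411 CPM in members. Most of the abundant genes of members were thus as high or higher in at least 1 of these gates of 1 library. Of the leading genes, 15 had a promoter in the table, and 1, Tm4sf1, held an NF-kB match and 2, Gja1 and Mt2, an AP-1 match.

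Within WT, other genes went with the content of contractile RNA. Lum Vcam1 cells were divided by their share of contractile UMIs into bins of under 0.5% (195 cells), 0.5 to 1% (298), 1 to 2% (774) and 2 to 3% (678), all members, and outside the limit into 3 to 4% (442), 4 to 5% (136) and 5% or more (36). Spp1 was lower in each next bin, with 19350 CPM in the first, then 5575, 4965 and 2686 CPM, and 1959, 1264 and 366 CPM outside the limit. Timp1 was at 3069, 1259, 973 and 690 CPM in members and 425, 273 and 164 CPM outside the limit. Mgp differed more evenly, with 43831, 38678, 33002 and 23070 CPM in members and 18549, 14514 and 7989 CPM outside the limit. Rgs5, a regulator of G protein signalling in mural cells, ran the other way, with 105, 508, 928 and 1665 CPM in members and 1680, 1648 and 2164 CPM outside the limit, as did Cnn1, from 41.2 CPM to 810 CPM in members and 1977 CPM in the last bin. Igfbp7 varied less, from 3738 to 4572 CPM in the bins of members. Each gene's CPM is a share of the same total, so a part of such opposite courses is arithmetic. The LysM-DKO members numbered 12, 8, 18 and 13 in the 4 bins of members, too few for levels.

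**Figure D4:**
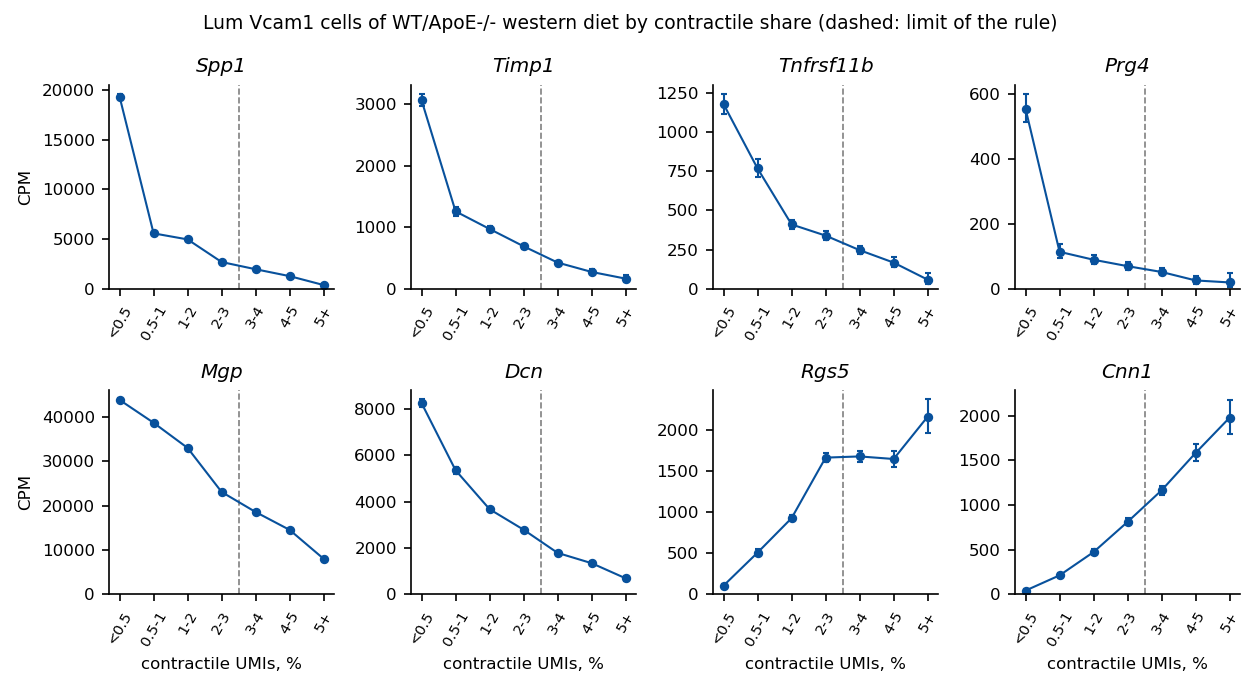
Levels of 8 genes (y axes, CPM) in Lum Vcam1 cells of WT/ApoE-/- western diet by share of contractile UMIs (x axes, percent), with exact Poisson 95% intervals; the dashed line is the 3% limit of the selection. Spp1 is at 19350 CPM in the first and 366 CPM in the last bin and Cnn1 at 41.2 and 1977 CPM, with no step at the limit.

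Members varied among themselves in a small set of genes. With each cell thinned to 1000 UMIs, excess variation, that is, variance above counting noise divided by the squared mean, had a median of 0.163 over 1442 genes in WT. Saa3, an acute phase protein, had the highest value at 39.2 and was seen in 6.02% of cells. Prg4 followed at 24.2, and Cxcl2, Hp, Ecrg4, Mmp3, Comp, Igfbp5, Timp1, Spp1 and Dnajb6 were among the top 15 genes, with values from 4.50 to 11.2. The other 4 were the class II antigen presentation genes H2-Aa, H2-Eb1, H2-Ab1 and Cd74 (8.16 to 13.9), which were at 1327 to 3626 CPM in lymphocytes of that library against 78.0 to 142 CPM in members. Of the markers outside the selection, Mgp had 0.478 and Fn1 0.670, far below Spp1 at 4.66. Spp1 had a median of 2, a 90th percentile of 16 and a maximum of 330 UMIs per 1000 in WT members, and in LysM-DKO members a median of 0, a 90th percentile of 7 and a maximum of 42. In the 51 LysM-DKO members the leading variable gene was Igfbp2 (20.4), and 71.4% of its thinned UMIs came from 1 cell.

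The WT members with the most and the least Spp1, 486 cells each, differed in other genes. The high group had at least 7 Spp1 UMIs per 1000 and the low group none. Prg4 was 446 CPM in the high and 76.6 CPM in the low group (log2 ratio 2.54, 2.29 to 2.81), Mmp3 1524 and 456 CPM (1.74), Dcn 7375 and 3521 CPM (1.07), Lgals3, galectin 3, 558 and 265 CPM (1.07) and Timp1 1894 and 1027 CPM (0.88). Ereg (0.97), Cxcl2 (0.75) and Cxcl1 (0.57) were also higher, and Bgn was lower (-0.22). Sfrp2 was lower with high Spp1, at 307 against 789 CPM (-1.36), as were Mfap4, a microfibril protein (-1.26), Fgl2 (-1.04), Rgs5 (-0.99) and the integrin Itga8 (-0.93). Lum, Fn1 and Mgp were higher by 0.80, 0.66 and 0.40, and Vcam1 by 0.29. These groups also differed in their contractile UMIs, with medians of 1.14% and 1.77%, and in depth, with medians of 1663.5 and 2073 UMIs.

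LysM-DKO and WT members of western diet were then compared gene by gene. Of 9118 genes with at least 50 UMIs over both, 2.56% (233) were called higher and 2.75% (251) lower in LysM-DKO, and the median log2 ratio over all genes was 0.08. The counts are from 51 cells against 1945, of which the LysM-DKO cells were deeper. The calls take no account of the spread between cells. Of 20 genes of the modulated list none was called higher and 2 lower (Ly6a and Tnfrsf11b), and the median was -0.18. Mgp had a log2 ratio of -0.20, Fn1 -0.37, Spp1 -0.47 and Timp1 -0.16. In cells thinned to 1000 UMIs, Spp1 was seen in 71.0% of WT and 25.5% of LysM-DKO members and Dcn in 85.1% and 60.8%, so the sums do not show how many cells held these genes. The contractile list had 1 of 17 called higher (Des, desmin, 1.64) and a median of 0.21. No collagen of 16 was called, with a median of 0.21.

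Metallothioneins were higher in LysM-DKO members than in WT members and were also higher in the Lum Vcam1 cells just outside the contractile limit. Mt1 (chromosome 8, 94179082 to 94180327, plus strand) and Mt2 (94172664 to 94173568) encode small proteins that bind zinc and copper. Mt1 was at 4671 CPM (4485 to 4863) in LysM-DKO members and 1423 CPM (1393 to 1452) in WT members, a log2 ratio of 1.72 (1.65 to 1.78), and it was seen in 49 of the 51 cells. The contractile-high Lum Vcam1 cells, those that failed the contractile limit alone, held Mt1 at 3283 CPM in LysM-DKO (23 cells) and 1018 CPM in WT and Mt2 at 782 and 315 CPM, the same direction as in members. The log2 ratio for Mt1 was 0.44 in smooth muscle, 0.16 in the chondrocyte gate and 0.53 in the fibroblast gate. Mt2 had 1.51 in members, from 44 cells, against -0.15, -0.37 and 0.30 in the same gates. The normal diet members of LysM-DKO held Mt1 at 1138 CPM. These ratios come from 1 library each and the difference between gates was not tested.

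Elastin was likewise higher in LysM-DKO members. Eln was at 2846 CPM (2701 to 2997) in LysM-DKO members and 1360 CPM (1331 to 1389) in WT members, a log2 ratio of 1.07 (0.98 to 1.15) from 48 of 51 cells, while smooth muscle of LysM-DKO held less than that of WT (-0.48). In the contractile-high Lum Vcam1 cells Eln was at 1926 CPM in LysM-DKO and 1824 CPM in WT. Of the 18 elastic fibre genes, Eln and Mfap4 (1.33) were called higher and Efemp1 (-1.67) lower. Mfap4 was also higher in smooth muscle of LysM-DKO, by 1.24.

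Several named genes had ratios in the same direction in the other gates. The gene model Gm10076 had 2.15 in members and 2.22, 2.28 and 2.17 in smooth muscle, the chondrocyte gate and the fibroblast gate. Sncg, synuclein gamma, had -2.42 in members and -3.62 in smooth muscle. The gene models Gm42418 (-1.18) and AY036118 (-1.77), which overlap each other on chromosome 17 in the annotation, were lower in LysM-DKO members, as was Lars2 (-1.12), and in smooth muscle their ratios were -0.16, -0.80 and -0.35. The 2 overlapping models lie on opposite strands, Gm42418 on plus and AY036118 on minus. Strand handling is not stated, and whether reads of either were counted for the other was not tested.

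Other named genes rested on few cells. Ecrg4 was lower by 2.91 on the log2 scale in LysM-DKO members (interval -3.88 to -2.19), from 13 UMIs in 4 cells. It was also lower in smooth muscle (-1.03), the chondrocyte gate (-1.01) and the fibroblast gate (-1.59). Hp, haptoglobin, was higher by 1.08, but 47.6% of its UMIs came from 1 cell, and with each cell weighted equally its ratio was 0.04. Ereg, an EGF family ligand, had 1.38 from 22 cells, Tiparp 1.42 from 28 cells and Gdf15, a stress-induced cytokine, 1.08 from 23 cells. In this order, their ratios were 2.61, 1.64 and 2.01 in the chondrocyte gate. They were -0.19, -0.14 and -0.20 in smooth muscle and -0.94, 0.92 and 0.51 in the fibroblast gate. The chemokine Ccl2 had 2.52, from 8 cells with 70.0% of UMIs in 1 cell, and Ccl7 1.95, from 3 cells, so neither describes the members as a whole. Cxcl1 had 0.99 from 27 cells. In the cell cycle list 7 of 13 genes were called higher and 1, Ccnd1, lower (-2.37), and Mki67 (1.78) came from 4 cells, Top2a (1.69) from 6 and Ube2c (2.07) from 3. The early response and heat shock list had no gene of 18 called and a median of 0.36.

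Genes of cholesterol handling, to which the series' title points, were sparse in members. Abcg1, an exporter of cholesterol to HDL, had 7 UMIs in LysM-DKO members and 201 in WT members, 13.8 and 32.2 CPM, a log2 ratio of -1.12 (-2.55 to -0.15). Abca1 was at 63.2 and 151 CPM (-1.24, -1.82 to -0.75), from 24 of 51 cells. Its ratio was -0.67 in smooth muscle, -0.76 in the fibroblast gate and -0.08 in the chondrocyte gate. Of 17 lipid handling genes, 4 were called lower (Lpl, Abca1, Fabp5, Abcg1), and Cd36 was called higher from UMIs that in LysM-DKO all came from 1 cell. For the epsins, Epn1 had 16 UMIs in LysM-DKO members, with 31.6 CPM (18.1 to 51.3) against 23.9 CPM (20.2 to 28.0) in WT, a log2 ratio of 0.45 (-0.44 to 1.15). Epn2 was at 84.9 CPM (61.5 to 114) against 101 CPM (93.6 to 110), a ratio of -0.24 (-0.74 to 0.19). For Epn1 and Epn2 no difference was detectable at this depth, and a count from the 3′ end need not fall in a deleted part, so it does not check the genotype. Lyz2, the gene of lysozyme M, had 249 UMIs in WT members and 0 in LysM-DKO members, where 3 UMIs would be 5.93 CPM, beside the macrophage genes described above.

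**Figure D5:**
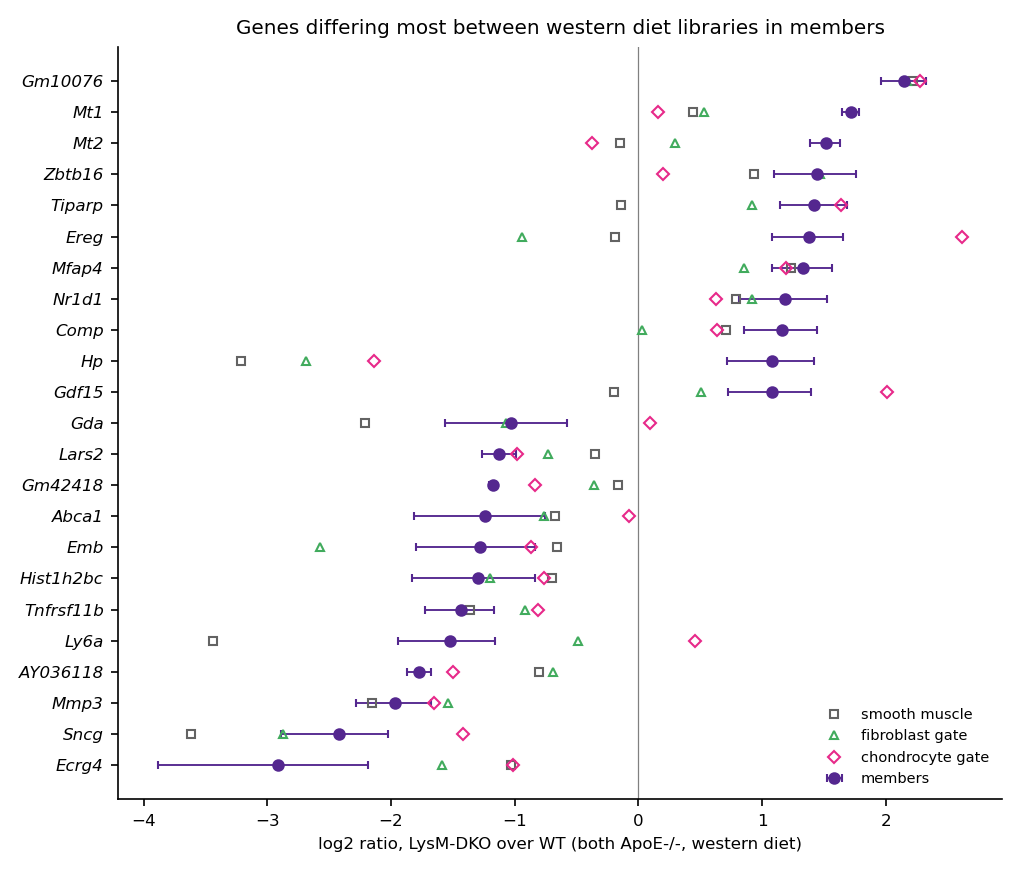
Log2 ratio of LysM-DKO over WT on western diet (x axis) for named genes (y axis) in members, with exact 95% counting intervals, and in smooth muscle, fibroblast and chondrocyte gates as open symbols without intervals. Mt1 and Mt2 lie at 1.72 and 1.51 in members and between -0.37 and 0.53 in the 3 gates plotted, while Gm10076 lies between 2.15 and 2.28 in all 4.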

How the data were processed

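The authors deposited whole-number counts of UMIs per gene and barcode, per the file headers from Cell Ranger 6.0.1 (normal diet) and 6.1.2 (western diet); the submitters' processing notes name Cell Ranger 6.1.2, Seurat 4.1.0 and mm10. Members and gene lists were chosen with earlier results of these data known. UMIs were summed over cells per library and given as CPM; ratios add 0.5 UMI and use genes with at least 50 UMIs over both groups. A smooth muscle gate of at least 10% contractile UMIs found 0 barcodes, so 4% was used; this and the bins above 3% were chosen after seeing the data. Named genes were the 4 highest per list in WT members, the 12 largest ratios per direction at 100 CPM or more, 20 leading and 15 most variable genes, and the rule's, title's and label genes. Some of these, and some list members, are not reported here. Genes named beyond these, such as those behind small counts, were chosen after their values were seen. Doublets were scored with scrublet (scanpy 1.11.5) and kept. Cells were thinned to 1000 UMIs with a fixed seed. Python 3.11.15, numpy 2.4.6, scipy 1.17.1 and pandas 2.3.3 were used. The ratio intervals and the 2-fold calls were tested on simulated gene totals without spread between cells. Gene positions are from GENCODE M21 (GRCm38), where 99.8% of 32285 features matched by ID. Members held 75391, 245957, 6245780 and 506299 UMIs in the order of the groups, so that 3 UMIs are 39.8, 12.2, 0.480 and 5.93 CPM.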

Additional observations from a re-analysis of the deposited data

Results flagged for a closer look

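The share of modulated Lum Vcam1 cells differed in direction between the diets: on the log2 scale, LysM-DKO over WT, it was 1.10 on normal diet and -4.50 on western diet. The difference between these ratios was not tested, because each group had 1 library. On normal diet it rests on 34 and 15 cells.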

How the results depend on the processing

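No paired analysis was possible because each group had 1 library. The member share in WT was 12.2% from 500 UMIs, 11.4% from 2000 and 8.42% from 5000 UMIs, 9.22% and 18.4% with contractile limits of 2% and 5%, 12.3% with 3 Lum and 10.9% with 2 Vcam1 UMIs, 15.8% of cells without Ptprc or hemoglobin UMIs, and 6.60% for members without immune or erythroid UMIs. In LysM-DKO it was 0.959% with the gate on 1000 thinned UMIs, 0.467% and 0.885% at the 2% and 5% limits and 0.430% without immune or erythroid UMIs. Its log2 ratio was -3.83 with the thinned gate, -3.69 from 5000 UMIs and -3.94 without immune or erythroid UMIs. Of the 51 LysM-DKO members 21 met the thinned gate, which held 78 cells in that library. Of the 1945 WT members 1352 met it, and it held 1872 cells there. At equal depth the selection thus picked a partly different set of cells, above all in LysM-DKO.

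Genes called higher and lower in LysM-DKO members numbered 57 and 91 at a minimum of 200 UMIs, where fewer genes were tested, and 155 and 166 in members without immune or erythroid UMIs.

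Medians over smooth muscle kept their sign. For the WT modulated list they were 2.39 and 2.68 from 500 and 2000 UMIs, 2.69 and 2.26 at contractile limits of 2% and 5%, 2.07 with equal weight per cell, 2.81 from 5000 UMIs, and 2.33 and 2.63 with smooth muscle from 3% and 5%. The WT contractile list gave -1.55 from 2000 UMIs, -1.74 with the thinned gate, -1.80 and -1.17 at 2% and 5%, -1.54 without doublets, -1.28 with equal weight, -1.69 from 5000 UMIs and -1.55 with smooth muscle from 5%. The WT osteochondrogenic list gave 2.14 thinned, 2.13 at 2%, 1.74 with 3 Lum and 1.81 with 2 Vcam1 UMIs, 1.94 without doublets and 2.02 with smooth muscle from 5%. In LysM-DKO the contractile list gave -1.93 thinned and -1.62 and -1.02 at 2% and 5%, the modulated list 3.07 thinned and 2.32 at 5%, the chemokine list 5.00 thinned, 3.23 without immune or erythroid UMIs and 4.70 with smooth muscle from 5%, and the osteochondrogenic list 1.11 at 2% and 0.99 and 0.95 with smooth muscle from 3% and 5%. The causes were not tested.

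Of 390 ratios of 30 named genes under 13 alternatives, 285 stayed inside the reported interval, 103 moved outside it with the same sign and 2 turned: Timp1 was 0.14 with equal weight and Mgp 0.037 in members without immune or erythroid UMIs. The alternatives from 5000 UMIs, without immune or erythroid UMIs and of the smooth muscle gate were chosen after seeing the data. The 51 LysM-DKO members limit every ratio between genotypes.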
